A study of Oryza sativa with 4 samples.

Results

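A stretch of neighbouring genes near the start of rice chromosome 10 was compared between the young panicles of the cultivars Pusa 1266 and Pusa Basmati 1. The stretch runs from LOC4347990 to LOC4348090 by locus number. Its members are the 51 genes in that range that the reference table places on chromosome 10 and that have an array probe set annotated to them alone, out of 17905 genes with such a probe set in the series. The reference table lists 76 loci in the range, of which 25 have no probe set of their own and were not measured. The members occupy positions 89 to 221 among the 2222 chromosome 10 entries of the table, and no other gene with a probe set lies between them. In Pusa 1266 a run of 5 consecutive members, LOC4348034 to LOC4348044, read near the bottom of the signal range, while all 5 gave clear signals in Pusa Basmati 1. A few genes further along LOC4348062 and LOC4348063 were below 16 in Pusa Basmati 1 and above 64 in Pusa 1266. After normalization most tested genes of the last part were higher in Pusa 1266. The stretch was picked out because many of its genes differ between the cultivars. The differences below therefore describe that choice. Calls from the fit over all probe sets are given to set the members beside all genes and are no independent test of the stretch, and no p-value is given for a member.

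Rice is largely self-pollinating, so an established cultivar is close to homozygous, and genes that lie side by side are usually inherited together as a block. A probe set consists of short oligonucleotides drawn from 1 transcript sequence. A low signal can be read where the transcript is scarce, and also where the cultivar's own sequence departs from the oligonucleotides. From a signal alone transcript level and match to the probes cannot be told apart. The same holds, in a dissected tissue, for fewer cells of a type and less RNA per cell.

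Both groups were Indica rice panicle primordia, collected at what the labels number stage 0. Pusa 1266 was measured on 2 arrays and Pusa Basmati 1 on 2, each pair being biological replicates according to the series' description. The characteristic labels give Pusa 1266 a high and Pusa Basmati 1 a low grain number per panicle, although the sample titles call both low. The labels name no treatment. The values were linear signals per probe set, in array units.

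The median over all probe sets was a signal of 6.8 and 7.8 on the Pusa 1266 arrays, against 11.5 and 11.3 for Pusa Basmati 1. The arrays were therefore brought to 1 distribution by quantile normalization of log2(signal + 16) before differences were taken. The 7 matched markers of the panicle meristem and the 8 matched markers of floral organs, which mark a later stage, were above a signal of 16 on all 4 arrays. The summed deposited signals of the meristem markers overlapped, at 7717 and 8548 in Pusa 1266 against 8149 and 8804 in Pusa Basmati 1. After normalization 5 of these 7 were called higher in Pusa 1266 and 1, MADS34, lower (34.8% and 26.2% of all tested genes). The floral organ markers summed to 3296 and 3770 in Pusa 1266 against 5335 and 6092 in Pusa Basmati 1 before normalization, and after it 2 of the 8 were called higher and the others were not called. The 2 matched leaf markers, RBCS and CAB2R, were called lower, with summed deposited signals of 816 and 805 in Pusa 1266 against 2780 and 3256 in Pusa Basmati 1. No matched marker was at 0. The 3' to 5' signal ratio of control transcripts, a sign of RNA integrity, was higher in Pusa 1266 for all 4 controls computed. For GAPDH it was 19.4 ± 1.28 in Pusa 1266 against 8.03 ± 0.669 in Pusa Basmati 1 (SD, n = 2 each), and the ratio of the means was 2.42, with 3.25 for actin, 1.42 for ubiquitin and 1.24 for cyclophilin. The part of the leaf markers and of these ratios in the differences below was not tested.

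Of the 51 members 38 passed the filter on low values, which asked for a signal above the median of the array on at least 2 of the 4 arrays. Across the array 84.8% of genes passed. The 13 members left out had signals between 0.2 and 12.7 on all arrays, and log2 differences between −0.38 and 0.41. Among them was LOC4347993, listed as ASMT3, named for acetylserotonin O-methyltransferase, the enzyme that makes melatonin. Its signals were 0.8 and 5.2 in Pusa 1266 against 0.8 and 0.2 in Pusa Basmati 1. Together with 2 members that passed the filter, 15 of the 51 stayed below a signal of 16 on every array, against 17.5% of all genes.

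In the fit over all probe sets with limma, which shares the replicate spread across probe sets, 17 members were called higher and 11 lower in Pusa 1266 at a Benjamini-Hochberg adjusted p of 0.05. Of all 15183 genes tested, 34.8% were called higher and 26.2% lower, or 61.0% in all (53.4% of all tested probe sets), so calls alone were common everywhere on this array. At 2-fold or more, 7 members were higher and 9 lower, where 5.57% of all tested genes were higher and 7.24% lower. At 8-fold or more 3 members were lower, LOC4348010, LOC4348040 and LOC4348043, where 0.665% of all tested genes were. That count depended on the constant of 16 added before logs, with 6 members for a constant of 1 and 0 for a constant of 64, and it was 5 with the deposited scaling. The shares of all tested genes at 8-fold under these settings are not given here. A second probe set of LOC4348060, not the one read for that gene, was also lower, by 19.5-fold. The members' median log2 difference, Pusa 1266 minus Pusa Basmati 1, was 0.33 and that of all tested genes 0.07. Without regard to sign the median was 0.71 in the stretch, 0.38 in the rest of chromosome 10 and 0.37 over all tested genes. In the 17 tested genes before the stretch it was 0.67, and in the nearest 30 tested genes after it 0.58. By this measure the stretch lay near its neighbours on both sides. After normalization the cultivars did not overlap in 31 tested members, 20 with Pusa 1266 above and 11 with it below, while 81.9% of all tested genes did not overlap.

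**Figure D1:**
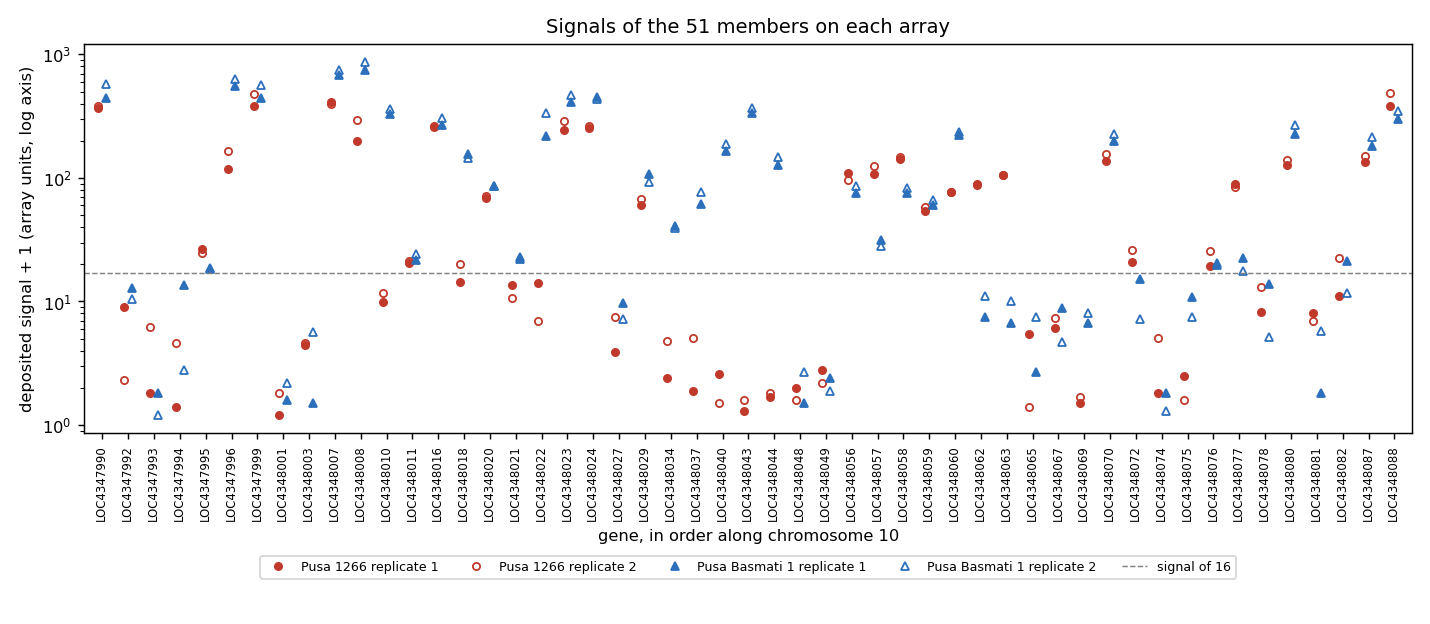
Deposited signal plus 1 (array units, log axis) of the 51 members in gene order, with red circles for the 2 Pusa 1266 arrays and blue triangles for the 2 Pusa Basmati 1 arrays. From LOC4348034 to LOC4348044 the red points lie at signals of 4.1 or less while the blue points lie at 38.2 or more, and at LOC4348062 and LOC4348063 the order is turned. Heights are not comparable between genes, because each gene is read by its own probe set.

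Replicates differed little beside the differences of 2-fold or more, but not beside the smallest ones. The median gap between replicates of a tested member was 0.16 on the log2 scale in Pusa 1266 and 0.07 in Pusa Basmati 1, and the widest gaps were 0.62 and 0.43. The widest gap in Pusa 1266 was in LOC4347992, whose difference between the cultivars was −0.18. The added constant of 16 narrows the gaps of genes with low signals.

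The most compact pattern was a run of 5 consecutive members, LOC4348034, LOC4348037, LOC4348040, LOC4348043 and LOC4348044, all called lower in Pusa 1266. The run covers 8 loci of the range and 14 chromosome 10 entries in all, and the loci between its members have no probe set of their own. Pusa 1266 signals lay between 0.3 and 4.1 in all 5, and Pusa Basmati 1 signals between 38.2 and 366.

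LOC4348043 had signals of 0.3 and 0.6 in Pusa 1266 against 332.9 and 366.0 in Pusa Basmati 1. Its log2 difference was −4.05 ± 0.13 (SE, n = 2 per cultivar, as for all differences below), or 16.5-fold, which was the largest among the members. LOC4348040 had 1.6 and 0.5 in Pusa 1266 against 164.6 and 186.6 in Pusa Basmati 1, a log2 difference of −3.06 ± 0.14. Both genes were near the bottom of the signal range on both Pusa 1266 arrays and well above it on both Pusa Basmati 1 arrays.

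LOC4348044 had signals of 0.7 and 0.8 in Pusa 1266 against 125.5 and 147.3 in Pusa Basmati 1, a log2 difference of −2.77 ± 0.15. LOC4348037 had 0.9 and 4.1 in Pusa 1266 against 61.0 and 75.7 in Pusa Basmati 1, a difference of −1.82 ± 0.17. LOC4348034 opened the run with 1.4 and 3.8 in Pusa 1266 against 39.6 and 38.2 in Pusa Basmati 1, a difference of −1.25 ± 0.17. After normalization the cultivars did not overlap in any of the 5, nor did they in 81.9% of all tested genes. A second probe set of LOC4348034 stood between 0.3 and 1.3 on all 4 arrays, so the contrast in this gene was seen by only 1 of its 2 probe sets.

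Because the Pusa 1266 signals of the run lay below 16, the constant added to every signal before taking logs, the sign of these differences is given by the signals and their size is set partly by that constant. With a constant of 1 the 5 differences ran from −7.40 to −2.91, and with a constant of 64 from −2.32 to −0.48.

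**Figure D2:**
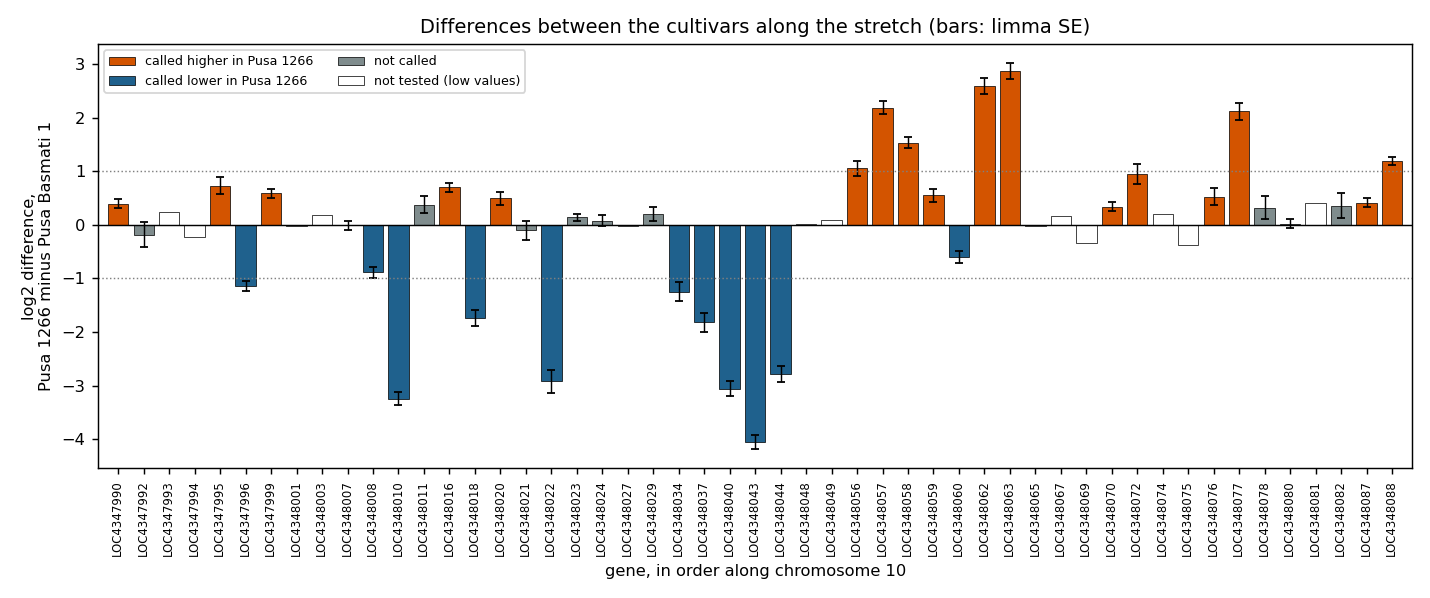
Log2 difference, Pusa 1266 minus Pusa Basmati 1, of the 51 members in gene order, with bars for the limma SE of the tested members and dotted lines at 2-fold. Members called lower are found up to LOC4348060 and reach −4.05 at LOC4348043, and members called higher at 2-fold or more all lie from LOC4348056 on and reach 2.86 at LOC4348063.

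Before that run, lower members alternated with members of small difference. In LOC4348010 the signals were 8.9 and 10.6 in Pusa 1266 against 329.9 and 357.3 in Pusa Basmati 1, a log2 difference of −3.24 ± 0.11 or 9.43-fold. In LOC4348022 they were 13.0 and 6.0 in Pusa 1266 against 218.6 and 332.0 in Pusa Basmati 1, a difference of −2.92 ± 0.22. In both genes, as in LOC4348040, LOC4348043 and LOC4348044 of the run, the Pusa 1266 signals were below 16 and the Pusa Basmati 1 signals above 64.

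LOC4348018 had 13.5 and 19.2 in Pusa 1266 against 154.0 and 143.9 in Pusa Basmati 1, a log2 difference of −1.74 ± 0.14. Its second probe set, with 4.3 and 10.6 in Pusa 1266 against 63.5 and 87.1 in Pusa Basmati 1, gave −1.51 ± 0.19. Both probe sets thus placed Pusa 1266 lower, by similar amounts. LOC4348008 was called lower at less than 2-fold, with 198.1 and 291.9 in Pusa 1266 against 752.0 and 872.6 in Pusa Basmati 1 and a difference of −0.88 ± 0.10.

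Between these genes stood neighbours that were not called, and others that were called higher. LOC4348007, next to LOC4348008 in the table, had a log2 difference of −0.01 ± 0.08. LOC4348023 and LOC4348024, next to LOC4348022, had 0.14 ± 0.07 and 0.08 ± 0.10, and their deposited signals were between 241.9 and 464.2. LOC4347995, LOC4348016 and LOC4348020 were called higher at 0.73 ± 0.16, 0.70 ± 0.09 and 0.49 ± 0.12, and the values of LOC4348016 and LOC4348020 turned to −0.13 and −0.24 with the deposited scaling. Low Pusa 1266 signals were therefore not continuous along this part of the stretch.

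LOC4347999, listed as FH3, a formin, the protein family that nucleates actin filaments, had signals of 384.8 and 478.4 in Pusa 1266 against 445.3 and 560.9 in Pusa Basmati 1. The deposited signals of the cultivars overlapped, and the value of 0.58 ± 0.08 after quantile normalization turned to −0.21 with the deposited scaling. The first member, LOC4347990, behaved alike, with 367.5 and 384.8 in Pusa 1266 against 440.6 and 571.7 in Pusa Basmati 1. Its difference was 0.40 ± 0.09 after quantile normalization and −0.40 with the deposited scaling. The direction of both genes thus rested on how the arrays were scaled.

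After the run of lower genes came 2 members that were below 2 on all arrays, LOC4348048 and LOC4348049, and then a group in which Pusa 1266 was higher. LOC4348044 and LOC4348056 are separated by 16 entries of the table. From LOC4348056 to the end of the stretch 12 of 16 tested members were called higher in Pusa 1266 and 1 was called lower, where 34.8% and 26.2% of all tested genes were. With the deposited scaling 7 of the 16 were called higher and 4 lower, where 4.63% and 66.6% of all tested genes were.

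LOC4348057 had signals of 105.8 and 122.9 in Pusa 1266 against 30.5 and 27.3 in Pusa Basmati 1, a log2 difference of 2.18 ± 0.12 or 4.53-fold. LOC4348058 had 140.2 and 147.8 in Pusa 1266 against 74.2 and 82.4 in Pusa Basmati 1, a difference of 1.53 ± 0.10. In LOC4348056 the signals were 107.9 and 95.7 in Pusa 1266 against 74.9 and 84.4 in Pusa Basmati 1, a difference of 1.06 ± 0.14. These 3 genes are adjacent in the table, and in each the deposited signals of Pusa 1266 already lay above those of Pusa Basmati 1. The 1.06 of LOC4348056 became 0.30 with the deposited scaling and was then no longer called.

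LOC4348063 showed the largest difference of the higher members. Its signals were 104.4 and 104.3 in Pusa 1266 against 5.7 and 9.0 in Pusa Basmati 1, a log2 difference of 2.86 ± 0.15 or 7.27-fold. LOC4348062 had 89.1 and 86.7 in Pusa 1266 against 6.5 and 10.1 in Pusa Basmati 1, a difference of 2.59 ± 0.15. In these 2 consecutive members both Pusa Basmati 1 signals were below 16 and both Pusa 1266 signals above 64. With an added constant of 64 their differences were 1.58 for LOC4348063 and 1.40 for LOC4348062, and with a constant of 1 that of LOC4348063 was 4.40.

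Further along, LOC4348077 had signals of 88.7 and 83.1 in Pusa 1266 against 21.3 and 16.6 in Pusa Basmati 1, a log2 difference of 2.11 ± 0.15. LOC4348072, listed as AO-1, had 20.0 and 25.3 in Pusa 1266 against 14.3 and 6.2 in Pusa Basmati 1 and a difference of 0.95 ± 0.19, which depended on the added constant (1.84 with 1 and 0.39 with 64). The last member, LOC4348088, had 378.1 and 485.7 in Pusa 1266 against 301.2 and 348.6 in Pusa Basmati 1. Its difference was 1.19 ± 0.08, or 0.39 with the deposited scaling. The higher members thus extended to the far edge of the stretch, with smaller or uncalled differences in between.

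The single gene called lower in this part was LOC4348060, and its 2 probe sets gave very different sizes. The probe set that stands for the gene, of the kind shared by several transcripts, had signals of 75.3 and 76.6 in Pusa 1266 against 221.9 and 236.2 in Pusa Basmati 1, a log2 difference of −0.60 ± 0.10. The other probe set had 2.2 and 0.9 in Pusa 1266 against 416.2 and 491.2 in Pusa Basmati 1, a difference of −4.29 ± 0.12 or 19.5-fold. Both placed Pusa 1266 lower. Had the probe set been chosen by its mean deposited signal, LOC4348060 would have had the largest difference of the stretch.

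**Figure D3:**
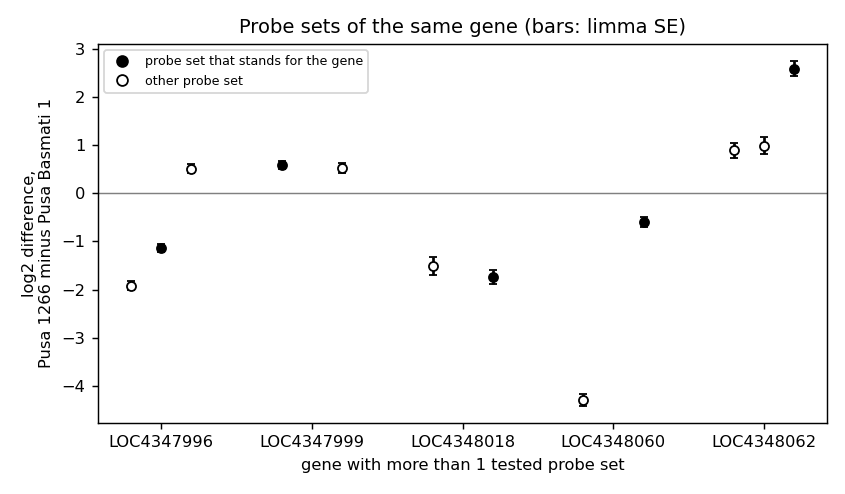
Log2 difference, Pusa 1266 minus Pusa Basmati 1, with limma SE, for each probe set of the 5 members that have more than 1 tested probe set. Filled points stand for the gene in the rest of the text, and open points are its other probe sets. LOC4347996 has points on both sides of 0, and those of LOC4348060 lie at −0.60 and −4.29.

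Of the 51 members 9 had more than 1 probe set, and 5 had more than 1 that was tested. In 4 of these 5 all tested probe sets were called in the same direction, and in 1 they were not. LOC4347996 was that gene. The probe set that stands for it had signals of 118.2 and 163.9 in Pusa 1266 against 552.4 and 625.8 in Pusa Basmati 1, a log2 difference of −1.14 ± 0.09. A second one, built on the same source sequence, had 57.2 and 58.5 in Pusa 1266 against 442.7 and 488.5 in Pusa Basmati 1 and gave −1.92 ± 0.09. The third had 158.0 and 185.7 in Pusa 1266 against 219.8 and 216.0 in Pusa Basmati 1 and gave 0.51 ± 0.09. In the deposited signals all 3 placed Pusa 1266 below Pusa Basmati 1, with log2 differences of −1.96, −2.70 and −0.32 in the same order. The median of all tested genes then stood at −0.62, so the third lay above that median and the others below it. After quantile normalization the same held. The sign of the third thus depended on the scaling, while its side of the median of all tested genes did not.

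The 3 probe sets of LOC4348062 all placed Pusa 1266 higher, at 2.59 ± 0.15 for the one that stands for the gene and 0.99 ± 0.18 and 0.89 ± 0.16 for the others. Those of LOC4347999 gave 0.58 ± 0.08 and 0.53 ± 0.11. By kind, 44 members (86.3%) were represented by a probe set of the plain type, meant for 1 transcript, as were 83.5% of all genes. The representation of the stretch by probe set kind thus lay near that of the array as a whole.

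Signals that were low in 1 cultivar only were counted in the deposited signals, with cut-offs chosen after the signals were seen. Of all genes, 26.0% and 24.5% were below 16 on the Pusa 1266 arrays, against 20.5% and 20.0% on the Pusa Basmati 1 arrays. These cut-offs thus favour the pattern low in Pusa 1266 across the whole array. Both signals of Pusa 1266 were below 16 and both of Pusa Basmati 1 above 64 in 5 of the 51 members (9.80%). These were LOC4348010, LOC4348022, LOC4348040, LOC4348043 and LOC4348044. The other probe set of LOC4348060 had this pattern too, but the one that stands for that gene did not, so the gene is not counted. The same pattern was found in 0.905% of all genes and 0.943% of the rest of chromosome 10. Among the nearest 30 tested genes after the stretch it was found in 2 (6.67%), LOC4348123 and LOC4348134. The reverse pattern held in 2 members (3.92%), LOC4348062 and LOC4348063, against 0.335% of all genes. At the other end 16 members (31.4%) were above 64 on all 4 arrays, against 55.7% of all genes. Of the 11 members called lower 7 had both Pusa 1266 signals below 16.

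The other calls were under 2-fold, 10 of them higher and 2 lower (LOC4348008 and LOC4348060). The 10 members called higher at under 2-fold had log2 differences between 0.34 and 0.95, and 7 of them were negative with the deposited scaling. The 10 tested members that were not called lay between −0.18 and 0.38.

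**Figure D4:**
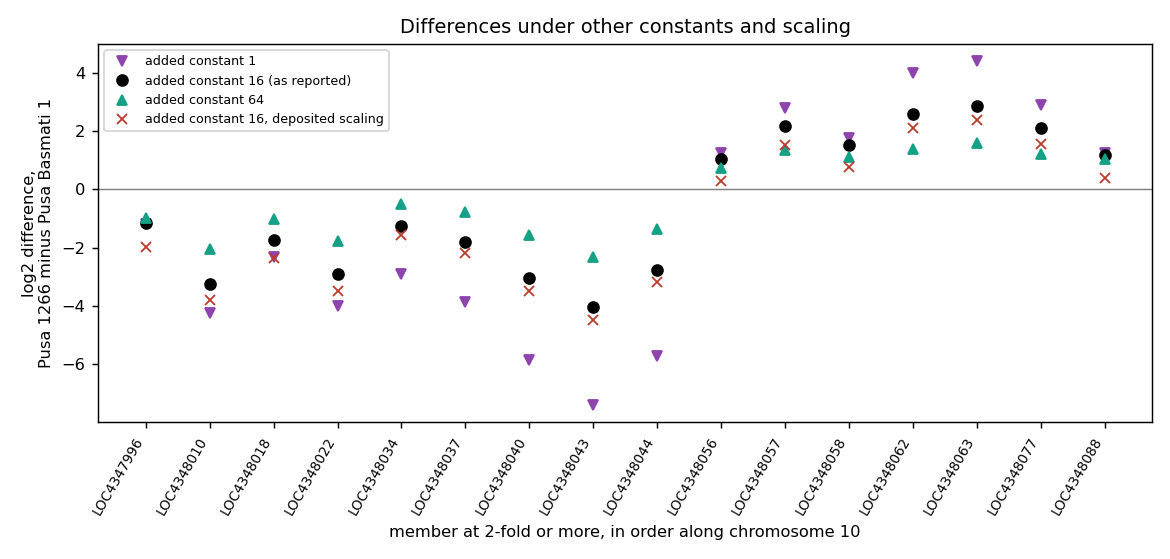
Log2 difference, Pusa 1266 minus Pusa Basmati 1, of the 16 members at 2-fold or more in gene order, with 1, 16 or 64 added to the signal before logs and, as crosses, with the deposited scaling and 16. Each gene stays on its side of 0 in all 4 versions, while the size at LOC4348043 runs from −2.32 to −7.40.

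All 16 members at 2-fold or more kept their sign with constants of 1 and 64, with the deposited scaling and when arrays were centred on their medians. A change of constant could not have turned these signs. It leaves the ranks on each array unchanged, and in none of the 16 did the cultivars overlap after normalization. Only the deposited scaling and the centring could have turned them. The number of members at 2-fold or more did change. With a constant of 64, 6 members were higher and 6 lower at 2-fold or more, and with a constant of 1 these were 9 and 9. The constant changes the fold of every gene, and the shares of all tested genes at these constants are not given here. The counts therefore do not show a change particular to the stretch. With the deposited scaling 7 members were called higher and 20 lower, where 4.63% of all tested genes were higher and 66.6% lower. The median of all tested genes then stood at −0.62 and that of the members at −0.41. Relative to the median of all tested genes the members' median was 0.26 higher after quantile normalization and 0.20 higher with the deposited scaling. In both, 15 of the 38 tested members lay below the median of all tested genes.

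Along the chromosome the differences were not evenly spread within the stretch. Taken as 3 blocks of 17 members in gene order, the first block, up to LOC4348021, held 3 members at 2-fold or more, all lower in Pusa 1266. The middle block, LOC4348022 to LOC4348060, held 6 lower and 3 higher. The last block, LOC4348062 to LOC4348088, held 4 higher at 2-fold or more. All 11 tested members of that block had log2 differences above 0 after quantile normalization, and 3 of the 11 fell below 0 with the deposited scaling. The median log2 difference of the tested members was −0.01 in the first block, −0.26 in the middle and 0.52 in the last.

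**Figure D5:**
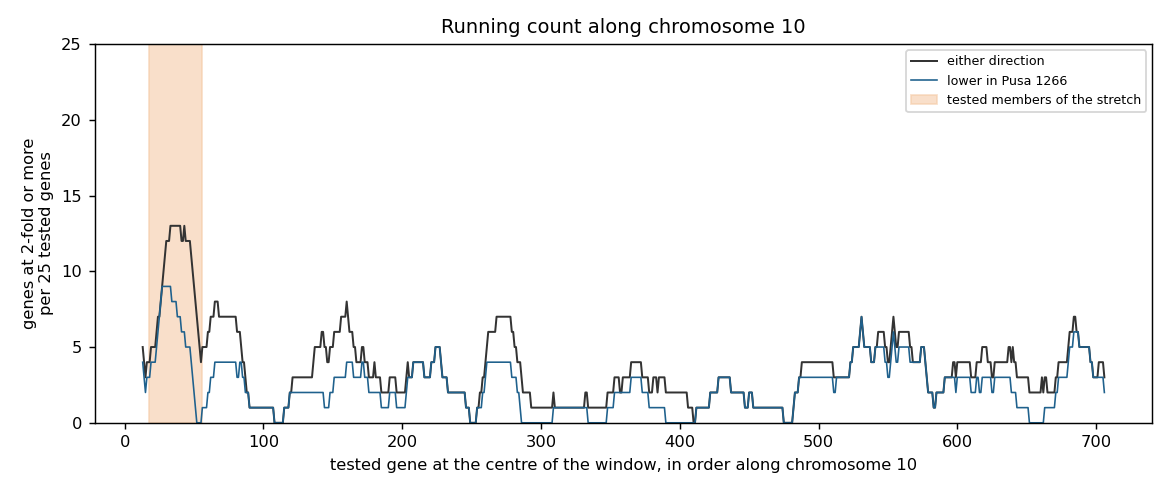
Number of genes at 2-fold or more in a moving window of 25 tested genes along chromosome 10, in either direction (black) and lower in Pusa 1266 (blue), with the tested members of the stretch shaded. Windows centred in the stretch reach 13 genes, and windows that hold no member reach 8.

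Among the 718 tested genes of chromosome 10, windows of 25 genes centred on a member held between 4 and 13 genes at 2-fold or more, with a median of 11. The highest count was centred on LOC4348024 among others. The 639 windows that held no member had between 0 and 8, with a median of 3. The windows overlap one another and the stretch was chosen for this density, so the counts are a description only. In the rest of chromosome 10, 26 of 680 tested genes (3.82%) were higher at 2-fold or more and 61 (8.97%) were lower. In the stretch these were 18.4% and 23.7% of the tested members.

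The edges of the stretch were set by locus number. All 17 tested genes that lie before it, towards the start of the chromosome, were taken as the flank on that side. Among these, 1 was higher and 2 were lower at 2-fold or more (17.6% together). Among the nearest 30 tested genes after the stretch, 3 were higher and 4 lower (23.3%). In the stretch the share was 42.1%, and over all tested genes it was 12.8%. Both flanks thus lay between the stretch and all tested genes. Just outside, LOC4347989 had signals of 0.7 and 1.0 in Pusa 1266 against 0.9 and 1.6 in Pusa Basmati 1 and was not tested, while LOC4347990, just inside, stood at 0.40. At the far edge LOC4348088, just inside, stood at 1.19. The next gene with a probe set, LOC9271423, had signals of 55.8 and 93.2 in Pusa 1266 against 81.8 and 82.5 in Pusa Basmati 1 and a difference of 0.58 ± 0.16, which turned to −0.15 with the deposited scaling. The gene with a probe set after that, LOC4348096, had signals of 18.9 and 14.2 in Pusa 1266 against 8.0 and 7.5 in Pusa Basmati 1. Its difference was 0.77 ± 0.19, or 0.45 with the deposited scaling. Of the 30 genes after the stretch 13 were called higher and 8 lower (43.3% and 26.7%), against 34.8% and 26.2% of all tested genes. The gene order is that of a Japonica reference, and the order in the cultivars was not examined.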

How the data were processed

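The deposited values are linear signal intensities of 57381 probe sets on each of 4 Affymetrix arrays, made by the authors with GCOS 1.2 per the submitters' processing notes. How background and scaling were handled is not given in the sources used here, and arrays give no counts, so their number limits the precision. The 123 control probe sets were left out. Log2(signal + 16) was quantile normalized, and the 30029 probe sets above the array median on at least 2 arrays were fitted with limma 3.58.1 in R 4.3.3 (lmFit, eBayes with trend), with Benjamini-Hochberg adjustment over all of them. The fit was tested on simulated data. Each gene is read from the probe set whose normalized log2 value has the highest mean.

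By the array annotation 22436 probe sets have 1 gene, 95 have several and 34727 have none. Names, chromosome and gene order came from the RefSeq table of assembly ASM3414082v1. The array's own build is unknown here, so no coordinates are given. The table holds no product descriptions, so members were not grouped by product as planned. Members and lists were chosen with earlier results of these data known. Named were members at 2-fold or more, those with a name beyond a locus number (in the synonyms, since no member's symbol is more than a number), and the genes at each edge. Genes named beside them, such as neighbours of little difference, were chosen after their values were seen. With 2 arrays against 2 an exact permutation test cannot pass, so none was run. Replicate numbers were not treated as pairs, since replicate differences in the cultivars correlated with r = 0.0123 across probe sets. Summaries used Python 3.11.15, pandas 2.3.3 and numpy 2.4.6.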

Additional observations from a re-analysis of the deposited data

How the results depend on the processing

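Of all probe sets 8472 were called higher and 7574 lower in Pusa 1266 after quantile normalization, 1646 and 17956 with the deposited scaling, and 2906 and 13660 under median centring. Members called higher became 7 (deposited scaling) and 9 (median centring), against 17, and members called lower became 20 with the deposited scaling, against 11. Members higher at 2-fold or more became 4 in both, and the share of all tested genes at 2-fold under these settings is not given here. The members' median log2 difference of 0.33 was −0.41 on the deposited scaling, −0.18 under median centring, 0.14 with a pseudocount of 64, 0.16 without a filter on low values (51 members) and 0.14 with the filter at the 75th percentile (25 members). The median without regard to sign, 0.71, became 0.57 with median centring, 0.90 and 0.47 with pseudocounts of 1 and 64, 0.41 without the filter and 1.14 with the stricter one. LOC4347990 turned to −0.40 (deposited) and −0.17 (median centring), and LOC4347999 and LOC9271423 to −0.21 and −0.15 with the deposited scaling. Leaving out 1 array gave 15 to 17 members called higher and 11 called lower in each case, with 7 to 8 and 9 to 10 at 2-fold or more. The median ran from 0.15 without Pusa Basmati 1 replicate 2 to 0.33 (0.21 without Pusa 1266 replicate 2), and the median size from 0.68 to 0.84. With the replicate number as a block 17 and 11 members were called, as without it, and of all probe sets 8656 higher and 7702 lower. Choosing probe sets by mean deposited signal, an alternative added after the data were seen, left 17 and 11 members called and put 10 in place of 9 lower at 2-fold or more, through LOC4348060. Of 276 values of the 20 tested named genes under the alternatives, 266 kept direction and call, 6 lost the call and 4 turned. The tally is not a measure of robustness, because many alternatives could not turn a direction. Changes of the filter, eBayes without trend and the replicate block leave the log2 difference of a gene as it was, so only its call could change. The 4 turns came with the deposited scaling or median centring. Signals below 16 leave the size of a difference to the constant that was added.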
